A study of Prunus persica with 2 samples.

Results

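The subject here is miR164, a plant microRNA (miRNA), and the NAC transcription factor transcripts that a degradome library of peach fruit placed under miRNA sites. The members were taken as the miR164 entry of the small RNA list and every degradome entry of miR164 or of the NAC transcripts ppa007653m, ppa008801m, ppa006028m and ppa007941m. This gave 1 of 886 listed small RNAs and 18 of 469 listed miRNA and transcript pairs. Of these 18 pairs, 2 joined miR164 to a NAC transcript, 12 joined a predicted miRNA to a NAC transcript and 4 joined miR164 to a further transcript. The 18 pairs fell on 8 of the 393 distinct transcript positions in the list.

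Fruit of the yellow-fleshed peach cultivar 'Troubador' was picked from 6-year-old trees grown in the field in Nanjing. Full bloom was the start of the count of days, and the harvests were on days 35, 55, 75, 90 and 105. Equal amounts of RNA from these stages were mixed for the small RNA library. The sample labels give the same stages for the degradome library, but the study's account of that library names no stages or mixing. Sequencing was without repeats, as 1 small RNA library and 1 degradome library. A degradome library holds the 5′ ends of uncapped RNA fragments, so that a transcript cut at a fixed base piles up reads there. No stage can be told from another in either library. With 1 library of each kind no difference could be tested against replicates, and all intervals given are exact 95% intervals that cover counting error only.

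In plants a miRNA pairs with its target transcript over almost its whole length, and the Argonaute protein that carries it cuts the target between the bases opposite miRNA bases 10 and 11. The miR164 family is known from Arabidopsis for its sites in transcripts of NAC genes. These include NAC1, which acts in auxin-dependent lateral root formation, NAC100, and the CUP-SHAPED COTYLEDON genes CUC1 and CUC2, which set the boundaries between organs. NAC proteins are plant-specific transcription factors named after their shared DNA-binding domain.

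The sequences of the small RNAs at the NAC sites are shown because miR164 and the others have different seeds. They are written 5′ to 3′ as listed, with the seed (bases 2 to 8) in capitals.
miR164: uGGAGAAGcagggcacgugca
m0107-5p: tAGCCAAGgatgacttgcct
m0148-5p: gAGCCAAGgatgaattgccgg
The 4 predicted miRNAs m0107-5p, m0108-5p, m0129-5p and m0183-5p had the m0107-5p sequence, and m0148-5p and m0149-5p had the other. The 6 names at the other NAC sites were thus 2 distinct sequences. Both share their seed, and their bases 2 to 13 are identical. Both resemble miR169, the miRNA known to act on transcripts of the NF-YA subunit of a CCAAT-binding transcription factor. With miR169 read from its base 2, they differ from it at 4 and 3 of 20 bases.
miR169: uGAGCCAAgaaugacuugcug

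The target sites are shown next because the pairing differs between them. Each is written 5′ to 3′ along the transcript, with the bases opposite miRNA bases 11 and 10 in capitals. The cut falls between these 2 capitals.
ppa007653m 987 to 1007: cuuacgugccCUgcuucucca
ppa008801m 621 to 641: agcaagugccCUgcuucucca
ppa026810m 719 to 739: agcacgugucCUguuucucca
ppa006028m 3 to 22: ggggaaaucAUccuuggcuc
ppa007941m 281 to 300: ggggaaaucAUccuuggcuc
The first 3 are miR164 sites, and the last 2 are the sites of m0107-5p. The description that came with ppa007653m was NAC100 of Arabidopsis, and that of ppa008801m was NAC1. The third, ppa026810m, was described as CUC2 and had a predicted miR164 site but no degradome entry. The transcripts lie at scaffold_5:15888018-15889642 (ppa007653m), scaffold_4:8224220-8228164 (ppa008801m) and scaffold_4:10396269-10397986 (ppa026810m) of a peach genome whose release the sources used here do not name. Site positions count bases along the transcript, and the place of the sites relative to the coding region was not analysed here for these 3 transcripts.

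miR164 was among the more read names of the small RNA list. Its count was 7402 reads (7234 to 7573), which was 0.321% (0.313 to 0.328, Clopper-Pearson) of the 2308209 reads of all listed small RNAs. It stood 10th of 886 by reads. The 2 names just above it were miR396 with 10991 reads and miR482 with 9377 reads. The 2 just below were the predicted m0187-5p with 6973 reads and m0100-3p with 6300 reads. None of these 4 intervals reached that of miR164, so that its place in the order was fixed beyond counting error, though not beyond a spread between libraries that was not measured.

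Of 6 conserved miRNAs taken as references, 3 had more reads than miR164 and 3 had fewer. miR156, which acts on SPL transcription factor transcripts, had 1910151 reads and took 82.8% of the listed reads. miR166, which acts on HD-ZIP III transcripts, had 39453 reads or 5.33 times the count of miR164. miR167, which acts on auxin response factor (ARF) transcripts, had 27038 reads or 3.65 times as many. Below miR164 came miR169 with 4207 reads, miR160, the regulator of another group of ARF genes, with 2419 reads, and miR172, the regulator of AP2-type genes, with 373 reads. The count of miR164 was 1.76 times (1.69 to 1.83) that of miR169, 3.06 times (2.92 to 3.20) that of miR160 and 19.8 times (17.9 to 22.1) that of miR172. Because miR156 fills most of the total, a share of listed reads says little about the other names. Without miR156 and miR157 the share of miR164 was 3.23%.

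The list held miR164 as a single entry with a single sequence. The known names shown here carry no member letters, so variants counted under the miR164 name could not be seen as entries of their own. No other name had the miR164 sequence, and 0 listed small RNAs of the same length lay within 3 substitutions of it. The closest of the same length differed at 9 bases. The small RNAs at the other NAC sites were rare. They were listed under several names because predicted names are given by hairpin, so the number of names cannot be compared with that of miR164. The names m0107-5p, m0108-5p and m0129-5p had 34 reads each, and m0183-5p, with the same sequence, was listed with 24. The names m0148-5p and m0149-5p had 82 reads each. With each sequence taken once at its highest count, these small RNAs had 116 reads, and miR164 had 63.8 times as many (53.1 to 77.3). The study reads the counts of known names as those of families, while a predicted count belongs to a hairpin sequence. The ratio may thus set unlike units side by side. With the reads summed over the 6 names, as if each name had reads of its own, the total was 290 and the ratio 25.5.

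**Figure D1:**
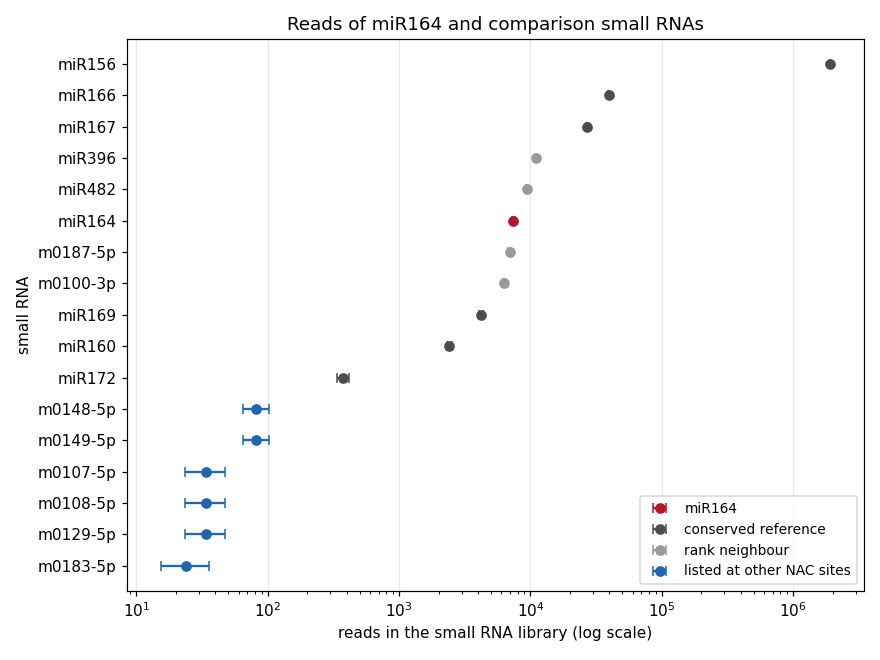
Reads of miR164, 6 conserved reference miRNAs, the 4 neighbours of miR164 in rank and the 6 predicted miRNAs listed at the other NAC sites, on a log scale; bars are exact 95% Poisson intervals. miR164 (7402 reads) lies between miR482 (9377) and m0187-5p (6973), and the 6 predicted miRNAs lie between 24 and 82 reads.

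miR164 sites were found on 2 NAC transcripts, and the reads at them were unequal. On ppa007653m, the NAC100-like transcript, 75 raw reads (59.0 to 94.0) began at base 998. On ppa008801m, the NAC1-like transcript, 11 raw reads (5.49 to 19.7) began at base 632. The first count was 6.82 times the second (3.60 to 14.2). Both starts fell opposite base 10 of miR164, the place that a cut between bases 10 and 11 gives. The same held for all 18 pairs, on 8 positions, while 90.2% of all 469 pairs had it. The list was made by comparing reads with predicted target alignments. This place was thus largely set by the calling and is no separate evidence of a cut. Transcript levels were not measured here, so reads at a site are not a rate of cleavage, and a transcript with more copies can give more of them.

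Both sites were of category 0, in which the position has more reads than any other on its transcript. Category 0 was given to 14.5% of all listed pairs, and on the NAC transcripts to 2 of 14 pairs. The NAC pairs with a CleaveLand p-value under 0.05 were the same 2, beside 18.6% of all pairs. Since 12 of the 14 pairs repeat 2 positions under 6 names, the count by position was 2 of 4 NAC positions, beside 14.5% of all 393 positions. The p-value was 0.00327 for ppa007653m, the lowest in the list, shared with miR319 on ppa004612m and miR395 on ppa005353m. It was 0.00360 for ppa008801m, shared with miR1509 on ppa020475m and miR393 on ppa003465m. These values follow the category closely. All 68 pairs of category 0 and all 15 of category 1 had a p-value under 0.05, while 0 of 145 pairs of category 2 and 0 of 222 of category 4 did. Category 3 was mixed, with 4 of 19 pairs under 0.05. Adjusted by the Benjamini-Hochberg method across the list of 469, the CleaveLand p-value was 0.125 for each of the miR164 NAC sites, so neither stayed under 0.05. No other pair of the list did so either, because the lowest p-value of the list is among these.

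By reads the miR164 sites stood in the upper part of the list, but not at its top. The NAC100-like site had more raw reads than 96.6% of the pairs. The pairs next above it were miR858 on ppa016135m with 84 reads and miR393 on ppa003465m with 107, and miR394 on ppa004699m had the same 75. Next below were miR162 on ppa000070m with 73 reads and miR397 on ppa003319m with 55. The NAC1-like site had more reads than 84.0% of the pairs. Beside it stood miR1023 on ppa002067m and m0246-3p on ppa013100m with 12 reads, miR5161 on ppa005294m with 11, and m0028-3p and m0103-3p on ppa001561m with 9. The median pair had 2 reads, and 47.3% of the pairs had a single read. Among the 68 pairs of category 0, whose median was 32.5 reads, 14 had more reads than the NAC100-like site and 11 had fewer than the NAC1-like site.

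The alignment score adds 1 for each mismatch and 0.5 for each G-U pair, with both doubled at miRNA bases 2 to 13, so that a low score means close pairing. It was 2.5 for ppa007653m and 2 for ppa008801m. In both duplexes all 12 bases from 2 to 13 of miR164 were paired, and the departures lay at the 3′ end of the miRNA. They were a G-U pair at base 19 and mismatches at bases 20 and 21 on ppa007653m, and mismatches at bases 17 and 21 on ppa008801m. The order of the scores was opposite to that of the reads, since the transcript with the better score had fewer reads. The sites differ from each other at 4 of 21 bases and share an unbroken run of 16. In the whole list, scores of 2 or less were given to 13.9% of pairs and scores of 2.5 or less to 17.7%.

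**Figure D2:**
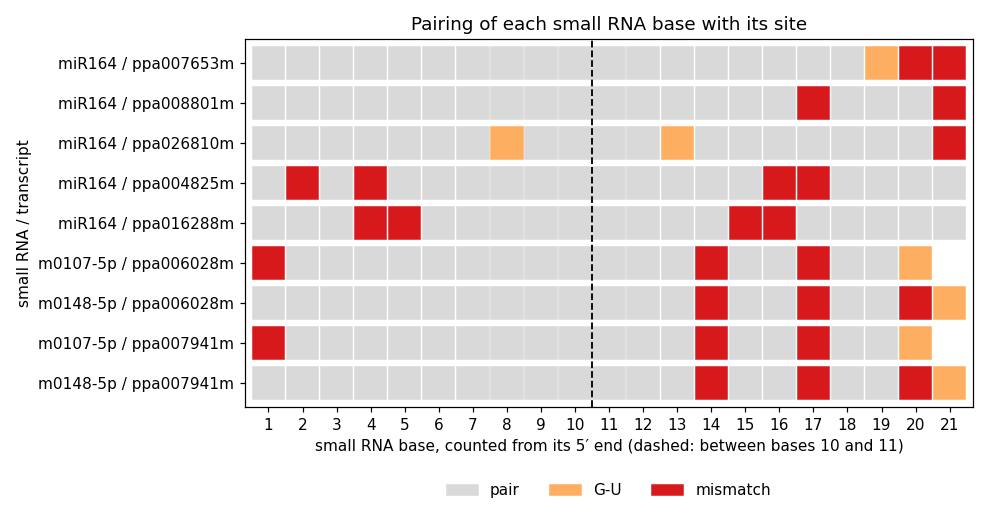
State of each small RNA base, counted from its 5′ end, against the site: paired (grey), G-U pair (orange) or mismatch (red), for the 5 predicted miR164 sites and for m0107-5p and m0148-5p on the other NAC transcripts. Bases 2 to 13 are all paired on ppa007653m, ppa008801m, ppa006028m and ppa007941m, while ppa026810m has G-U pairs at bases 8 and 13 and the other 2 miR164 sites have mismatches in the seed.

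Of 5 transcripts predicted to carry a miR164 site, 2 were in the degradome list, and these were the NAC100-like and NAC1-like transcripts. The third NAC transcript among the 5, the CUC2-like ppa026810m, was not listed. Its site had 18 paired bases, as many as that of ppa007653m, with G-U pairs at bases 8 and 13 and a mismatch at base 21. By the letters its score was 3, within the range of the list, which ended at 4. The remaining 2 were ppa004825m, described as a UDP-glucosyl transferase, and ppa016288m, described as LINC4, a protein of the nuclear periphery in Arabidopsis. Their scores by the letters were 6 each, beyond that range, with mismatches at bases 2, 4, 16 and 17 and at bases 4, 5, 15 and 16. An unlisted transcript within that range, such as ppa026810m, may have had no reads at the site or have been absent from the fruit. These cannot be told apart here. The 2 with a score of 6 may have been left out for their score alone, since no listed pair scored above 4. Of 8 transcripts described as NAC, NAM or CUC2 among the predicted targets considered, 4 had a degradome entry and 4 had none. Those with none were ppa026810m and the NAM-described ppa016845m, ppa021666m and ppa026109m. The 4 with an entry are the members themselves, which were taken from the degradome list. Neither this count nor the 2 of 5 is therefore a rate of listing, and the share over all predicted targets was not computed here.

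The remaining 4 pairs of miR164 were on ppa008149m, ppa008154m, ppa008156m and ppa008159m, at bases 529, 553, 534 and 364. No description of them was used here, so whether they are NAC transcripts was not settled. Each was listed with 22 raw reads (13.8 to 33.3) and 5.5 normalized reads. The normalized value was thus 4 times lower than the raw value in each of the 4, and they add up to 22. These pairs had the highest score of the list, 4, which 52.7% of all pairs had. They were of category 2, in which the position is not the most read of its transcript, with a CleaveLand p-value of 0.619. Raw reads at them were 2 times those at the NAC1-like site (0.930 to 4.57), an interval that includes equality. Normalized reads were 11 for that site and 5.5 for each of the 4, so the order turned with the measure.

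The other NAC transcripts were ppa006028m, described as NAC103, and ppa007941m, described as NAC082. In Arabidopsis NAC103 is known from the response to stress in the endoplasmic reticulum, and NAC082 from the response to disturbed ribosome assembly. Neither had a miR164 entry. Each of the 6 predicted miRNAs was listed on both, which made 12 pairs, but all 12 rested on 1 position in each transcript, base 13 of ppa006028m and base 291 of ppa007941m. Each position was listed with 5 raw reads (1.62 to 11.7) and 2.5 normalized reads, and the normalized values add up to 5. The 12 pairs all had a score of 3.5 and category 2. The CleaveLand p-value was 0.356 for the names with the m0107-5p sequence and 0.586 for those with the m0148-5p sequence. All 12 were above 0.05, as were 80 of the 88 pairs with that score.

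The site on ppa006028m lay at the very first bases of the transcript. The first bases of ppa006028m and the matching stretch of ppa007941m are shown for this reason, with AUG in capitals.
ppa006028m 1 to 30: AUGgggaaaucauccuuggcuccuggguuu
ppa007941m 279 to 308: AUGgggaaaucauccuuggcuccuggguuu
The 30 bases are the same in both. Over the 52 bases that could be compared the transcripts differed at 1, base 33 from the AUG. The sequence of ppa006028m thus began at an AUG, and the same AUG lay at bases 279 to 281 of ppa007941m, 278 bases further in. The site of m0107-5p began at the last base of that AUG in both. A read that starts at the cut has the same letters in either transcript up to base 32, and the normalized value was 2 times lower than the raw one on both. In the list as a whole, normalized reads were below raw reads in 21.3% of pairs and above them in 0.

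In the duplexes with m0107-5p, bases 2 to 13 were all paired, with mismatches at bases 1, 14 and 17 and a G-U pair at base 20. With m0148-5p, which is longer by a base, the mismatches were at bases 14, 17 and 20 and the G-U pair at base 21. The higher score of these sites came from 3 mismatches and a G-U pair, against 2 mismatches on the NAC1-like transcript. On all 4 NAC transcripts the score recomputed from the letters was the listed one. The mean score was 1.25 higher at the other NAC sites than at the miR164 NAC sites.

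The comparison of reads between these sites depends on how the 5 reads are counted. With each transcript position taken once, the miR164 NAC sites had 86 raw reads and the other NAC sites 10, a ratio of 8.60 (4.46 to 18.6). That interval takes the 10 as separate reads, and is too narrow if both transcripts were listed with the same 5. With normalized reads the other sites had 5, and the ratio was 17.2 (7.09 to 54.3). With an entry for every miRNA name, which repeats the same reads 6 times per transcript, the ratio was 1.43. The NAC100-like site alone exceeded the 5 reads by 15.0 times (6.15 to 47.5). The NAC1-like site exceeded them by 2.20 times, but with an interval of 0.705 to 8.08, so its reads could not be told apart from theirs by count. What set it apart in the list was its category and its score.

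**Figure D3:**
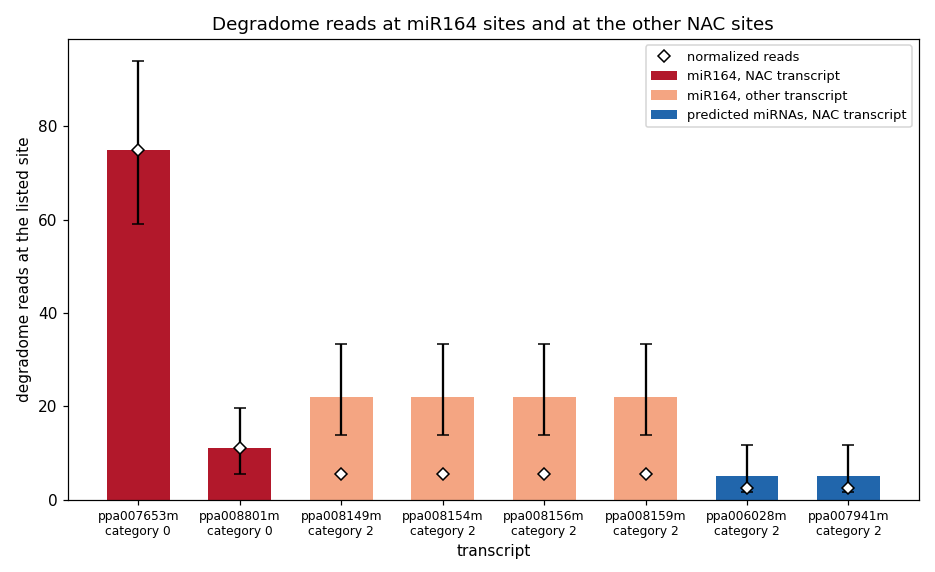
Raw degradome reads (bars, with exact 95% Poisson intervals) and normalized reads (diamonds) at each of the 8 positions, with the category of each. The NAC100-like ppa007653m (75) stands above the rest, ppa008801m (11) overlaps the interval of ppa006028m and ppa007941m (5 each), and raw and normalized reads differ at the 6 positions of category 2.

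**Figure D4:**
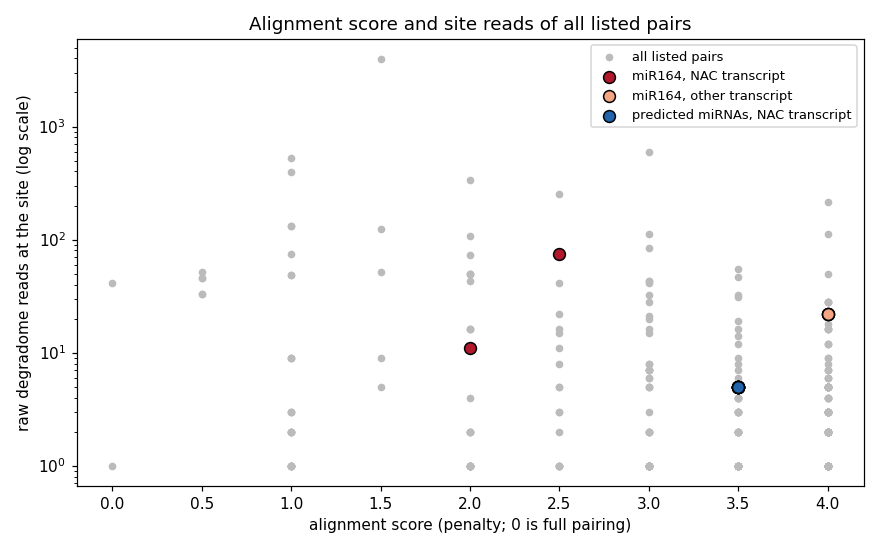
Alignment score against raw reads (log scale) for all 469 listed pairs, with the 18 pairs of miR164 or the NAC transcripts in colour. The 12 pairs of predicted miRNAs lie on a single point at a score of 3.5 and 5 reads, and the 4 further miR164 pairs on a point at 4 and 22 reads.

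The small RNAs of the other NAC sites had further targets, and their lowest CleaveLand p-values were on those. On ppa006634m, described as NF-YA1, the kind of gene on which miR169 is known to act, all 6 names were listed at base 1252 with 5 raw and 5 normalized reads in category 1, in which several positions share the highest count. The CleaveLand p-value there was 0.0176 at a score of 4 for the m0107-5p sequence and 0.00507 at a score of 2.5 for the m0148-5p sequence. The 4 names with the m0107-5p sequence were also listed on ppa008065m, at base 1069, with 28 reads (18.6 to 40.5), category 0 and a CleaveLand p-value of 0.0114. They had 1 read each on ppa010894m and ppa026026m, in category 4, that of single reads. The CleaveLand p-value of these single-read pairs was 0.760. No description of ppa008065m was used here, so whether it is a NAC transcript was not settled. miR169 itself was not listed on a NAC transcript. It was listed on ppa006634m at base 1253, a base away from the position above, with 1 read, and on ppa010894m at base 531 with 2 reads, with CleaveLand p-values of 0.278 and 0.538.

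The reads of miR164 and of its most read site were set beside those of other miRNAs. Of the known miRNAs, 27 had a pair with a CleaveLand p-value under 0.05. miR164 stood 8th among them by small RNA reads and 8th by reads at its most read such site, where it shared that place with miR394. miR396 and miR858 were above it in both, and 13 names, such as miR172 with 373 and 20 reads, were below it in both. Of the others, 5 had fewer small RNA reads and more site reads, such as miR397 with 33 small RNA reads and 3942 site reads on ppa003646m. Another 5 had more small RNA reads and fewer site reads, such as miR156 with 50 site reads on ppa005013m. Names that share a site, such as miR156, miR157 and miR3946 on ppa005013m, are not independent points.

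**Figure D5:**
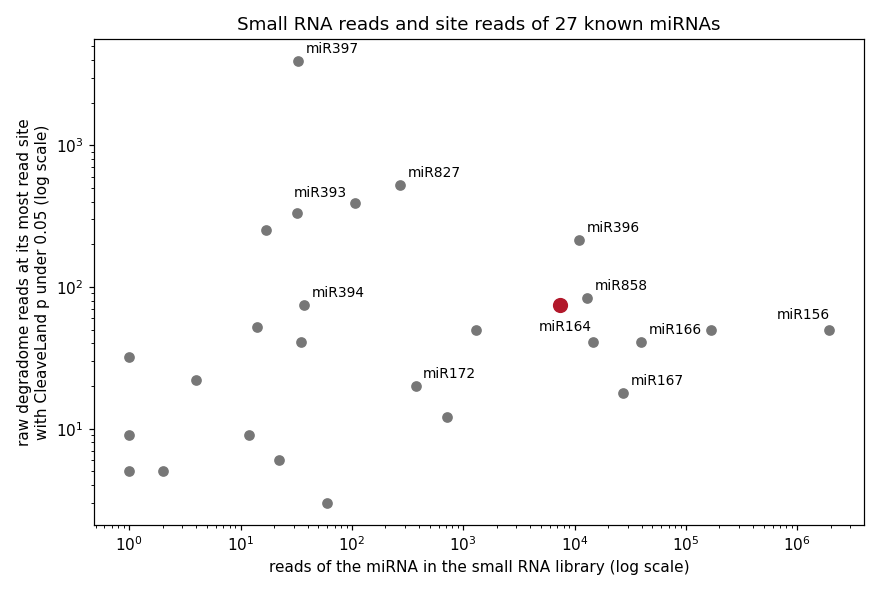
Reads in the small RNA library against raw degradome reads at the most read site with a CleaveLand p-value under 0.05, for 27 known miRNAs on log scales. miR164 (red, 7402 and 75 reads) is among the more read names on both axes, with only miR396 and miR858 higher in both.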

How the data were processed

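Small RNA of 18 to 30 nt was sequenced, reads were cleaned by the authors, and known names were given by comparison with miRBase. The deposited count of each small RNA is a whole-number read count without normalization. For the degradome, the authors mapped reads to peach transcripts and used CleaveLand with targetfinder. The deposited list gives an alignment score, a category, a p-value, raw reads as counts and normalized reads, a signal whose divisor the sources used here do not state. Total degradome depth was not used here. In 6 NAC entries the aligned range had been turned into a calendar date by a spreadsheet and was read back as month and day.

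Intervals (exact Poisson, Clopper-Pearson, and exact conditional for ratios) and duplex scores were computed in Python 3.11.15 with SciPy 1.17.1 and tested on simulated data. Site letters came from the study's alignments. RefSeq gene names matched 0 of the transcript identifiers. The genes named were all 4 NAC transcripts, the small RNAs listed at them with their other targets, the neighbours in reads, 6 conserved families and the predicted miR164 targets. Members and lists were chosen with earlier results of these data known.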

Additional observations from a re-analysis of the deposited data

How the results depend on the processing

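In all 20 alternatives were run over 8 results, and in 15 the value was unchanged or inside its exact 95% interval, for percentiles the binomial interval of the share of pairs. The percentile by reads ranged from 95.2 to 96.6 for ppa007653m and from 82.1 to 86.1 for ppa008801m. The share of miR164 was 0.328% of the reads of known miRNAs, 3.23% without miR156 and miR157, and 0.0444% of all clean reads of the library. The miR164 count over that of the small RNAs at the other NAC sites was 25.5 with reads summed over names. The site read ratio of 8.60 became 17.2 with normalized reads. It counts among the 15 for lying inside the interval of 4.46 to 18.6, not for being unchanged. With an entry per miRNA name the site read ratio was 1.43. The rank of miR164 and the count of 2 NAC pairs with a CleaveLand p-value under 0.05 were the same in each alternative run for them. For that count this says little, since both pairs were of category 0 with scores of 2 and 2.5. Keeping only category 0, or only scores of 3 or less, could not have removed them. Nor could a cut of 0.01, since their CleaveLand p-values were 0.00327 and 0.00360, or an entry per position, since they lie on separate transcripts. Leaving out predicted names could not move the rank of miR164, because the most read of them, m0187-5p, stood 11th. No paired analysis was possible because each kind of library was sequenced once. Depth limits the 11 and 5 read sites, and biological spread was not measured.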

Other observations

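Of the 6 hairpins of the small RNAs at the other NAC sites, 2 pairs lay near each other. Those of m0107 (scaffold_3:21677982-21678089) and m0108 (scaffold_3:21678261-21678406) were on the same strand with 171 bases between them. Those of m0148 (scaffold_4:16643245-16643348) and m0149 (scaffold_4:16662473-16662576) were 19124 bases apart on the other strand. Those of m0129 (scaffold_4:10137181-10137295) and m0183 (scaffold_5:13336056-13336224) had none of the other 5 near them. For 2 hairpins the opposite arm had more reads than the arm listed on the NAC transcripts, with 64 reads for m0129-3p against 34 for m0129-5p, and 67 for m0183-3p against 24 for m0183-5p. For m0148 and m0149 the opposite arm had 3 reads against 82.

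Another sequence of this group, listed as m0023-5p, m0122-5p, m0131-5p and m0132-5p with 250 reads each, was more read than either of the sequences at the NAC sites, but was not listed on a NAC transcript. It differs from m0107-5p at 2 of the first 20 bases.
m0023-5p: cAGCCAAGgatgacttgccgg
It was listed on ppa006634m at base 1252 with the same 5 reads and a CleaveLand p-value of 0.0141.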
